A study of Mus musculus with 16 samples.

Results

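The 30 genes of the oligodendrocyte lineage described here were followed in mouse brain RNA in which the ribosomes of astrocytes carried a tag. They were taken by name from 31 entries, with a repeat of Mbp, and all 30 were found among the 24033 gene names of each of the 16 libraries. Of these, 12 encode myelin proteins or proteins of the mature cell (Mbp, Mobp, Mal, Cldn11, Mog, Mag, Cnp, Opalin, Ermn, Tspan2, Hapln2, Gpr37) and 4 serve myelin lipids, acetate and iron (Ugt8a, Fa2h, Aspa, Trf). A further 3 mark newly formed oligodendrocytes (Enpp6, Bcas1, Gpr17), 7 mark precursors (Pdgfra, Cspg4, C1ql1, Lhfpl3, Cacng4, Neu4, Matn4) and 4 are transcription factors (Olig1, Olig2, Nkx2-2, Nkx6-2). The whole striatum and hippocampus of 4 mice were used at postnatal day 63. Each mouse was hemizygous for Aldh1l1-creERT2, a Cre recombinase driven from an astrocyte gene and made responsive to tamoxifen, and heterozygous for Ribotag, an allele that adds a hemagglutinin tag to the ribosomal protein Rpl22 after Cre has acted. The strain was FVB backcrossed to C57/Bl6N, and both sexes were used; the labels do not give the sex of each animal. From each region came an input library, made from cleared lysate, and an IP library, made from RNA that came down with tagged ribosomes. The animals are named 970, 971, 974 and 977, and each gave all 4 libraries. All groups carried the same alleles, so Cre that acts outside astrocytes would tag ribosomes there too, and mice without Cre were not analysed here.

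Oligodendrocytes wrap axons in myelin, a compacted stack of membrane rich in galactolipids and in proteins such as Mbp. They arise throughout life from precursors that carry the receptor Pdgfra and the proteoglycan Cspg4, through a brief stage marked by Gpr17, Bcas1 and Enpp6, under the direction of Olig2, Sox10 and Myrf. Oligodendrocytes lie close to astrocytes and are coupled to them, and some lineage genes, Olig2 among them, are also known from astrocytes.

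The start regions of 5 genes are shown first, because 2 of them (Olig2, Cnp) rose in hippocampal IP, 2 (Mal, Ermn) had the lowest log2 folds in IP, and Lhfpl3 was among the genes whose IP enrichment differed between regions. Sequences are from RefSeq (GRCm38.p6), 5′ to 3′ on the strand of the gene, and end before the outermost annotated start. Capitals mark the E-box CANNTG, the sequence bound by basic helix-loop-helix factors such as Olig2, and the SOX-type cores ACAAAG and ACAATG, all searched on both strands. The motifs do not overlap in the letters shown. The windows are chr16:91225300-91225456 and chr11:100574689-100574903 (157 and 215 bases, plus strand), chr5:22745804-22746053 (250 bases, plus strand), and chr2:127656696-127656945 and chr2:58052865-58053114 (250 bases each, minus strand).
Olig2: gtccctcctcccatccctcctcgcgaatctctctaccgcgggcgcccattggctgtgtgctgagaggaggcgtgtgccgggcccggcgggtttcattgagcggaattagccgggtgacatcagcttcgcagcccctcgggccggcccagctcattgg
Cnp: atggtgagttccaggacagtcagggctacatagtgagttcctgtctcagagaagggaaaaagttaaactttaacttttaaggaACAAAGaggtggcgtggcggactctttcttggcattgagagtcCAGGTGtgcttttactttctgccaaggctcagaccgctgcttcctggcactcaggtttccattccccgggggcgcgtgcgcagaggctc
Lhfpl3: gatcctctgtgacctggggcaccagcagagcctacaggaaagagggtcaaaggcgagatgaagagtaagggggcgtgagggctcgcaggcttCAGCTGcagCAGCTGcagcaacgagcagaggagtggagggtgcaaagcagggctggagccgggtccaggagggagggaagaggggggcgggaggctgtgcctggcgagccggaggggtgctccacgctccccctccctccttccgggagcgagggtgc
Mal: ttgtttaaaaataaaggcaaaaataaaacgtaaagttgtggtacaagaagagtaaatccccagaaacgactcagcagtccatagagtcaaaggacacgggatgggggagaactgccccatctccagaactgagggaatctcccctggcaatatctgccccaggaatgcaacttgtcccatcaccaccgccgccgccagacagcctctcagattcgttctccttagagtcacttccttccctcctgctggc
Ermn: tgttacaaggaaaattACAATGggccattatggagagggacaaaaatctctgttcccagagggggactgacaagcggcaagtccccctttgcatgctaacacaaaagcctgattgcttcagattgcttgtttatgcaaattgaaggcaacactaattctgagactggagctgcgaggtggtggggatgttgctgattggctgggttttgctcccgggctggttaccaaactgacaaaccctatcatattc
The Cnp window holds 1 E-box and 1 ACAAAG, the Lhfpl3 window 2 E-boxes, the Ermn window 1 ACAATG, and the Olig2 and Mal windows none of these. The GC content is 66.9% for Olig2, 67.2% for Lhfpl3, 52.1% for Cnp and 47.2% for Ermn. Windows of 250 bases before the RefSeq start were matched to 22 of the 30 genes by symbol, and gave 26 windows. An E-box was in 61.5% of these and in 66.2% of all 32851 windows of that length. ACAAAG was in 23.1% of the 26 and 16.5% of all, and ACAATG in 15.4% and 10.7%. A match is a match of letters only. In the gene order, Olig2 and Olig1 are neighbours on chromosome 16, 41094 bases apart. In GENCODE vM21 on mm10, Olig2 spans chr16:91225457-91228677, Olig1 chr16:91269772-91271933 and Cnp chr11:100574904-100591729 on the plus strand, and Gpr37 chr6:25665878-25690729, Mal chr2:127633226-127656695 and Ermn chr2:58045113-58052864 on the minus strand. Exons of 13 of the 30 genes overlap those of another gene, for Cnp 154 bases of the expressed gene Dnajc7 on the other strand. The largest overlap is that of Trf, 2108 of its 3320 exon bases. It is with Gm20425 on the same strand, which is not among the gene names of the libraries. Whether the counting used strand is not given in the sources used here, so reads in such stretches cannot be assigned to 1 gene.

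Levels below are scaled FPKM, that is, the deposited values, taken as FPKM (fragments per kilobase relative to the library total), divided by a scaling factor per library. The labels do not name this unit. Folds are differences of log2(scaled FPKM + 1) with their standard errors, which understates changes of low genes. A gene is called when its adjusted p in limma, over all 13449 genes tested, is under 0.05. Fragments per library, estimated from the steps between FPKM values, ranged from 4150000 to 22550000 and were lowest in the striatal inputs of 974 and 971. Known regional markers followed the labels. Neurod6, a gene of hippocampal neurons, was at 65.0 to 69.5 in hippocampal and 0.444 to 2.24 in striatal input, and Drd2, the dopamine receptor of striatal neurons, at 0.534 to 2.52 and 176 to 308. In IP, all 10 astrocyte markers rose in each region, among them Aldh1l1 from 4.53 ± 1.35 to 109.8 ± 11.3 in hippocampus and from 4.29 ± 1.05 to 105 ± 27.6 in striatum (mean ± SD, n = 4). All 8 neuronal markers fell in each region, from a summed level of 2882 to 2984 in hippocampal input to 134.9 to 207 in IP, and from 1561 to 1942 to 99.3 to 162 in striatum, and none of the 8 was at 0 in any library. The p-values measure the spread between these 4 animals. Of the 30 genes, 28 passed the filter of at least 1 FPKM in at least 4 libraries. Matn4, an extracellular matrix gene of precursors, and Nkx6-2, a homeobox factor of myelinating cells, did not. Matn4 was at 0 to 0.594 scaled FPKM over the 16 libraries and Nkx6-2 at 0 to 1.54, which is at most 45 and 43 fragments in a library. For Nkx6-2 the 4 striatal IPs, at 0.742 to 1.54, lay above the 4 hippocampal IPs, at 0 to 0.278. Neither gene was tested in the main fit, and both entered only the alternative with no filter.

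**Figure D1:**
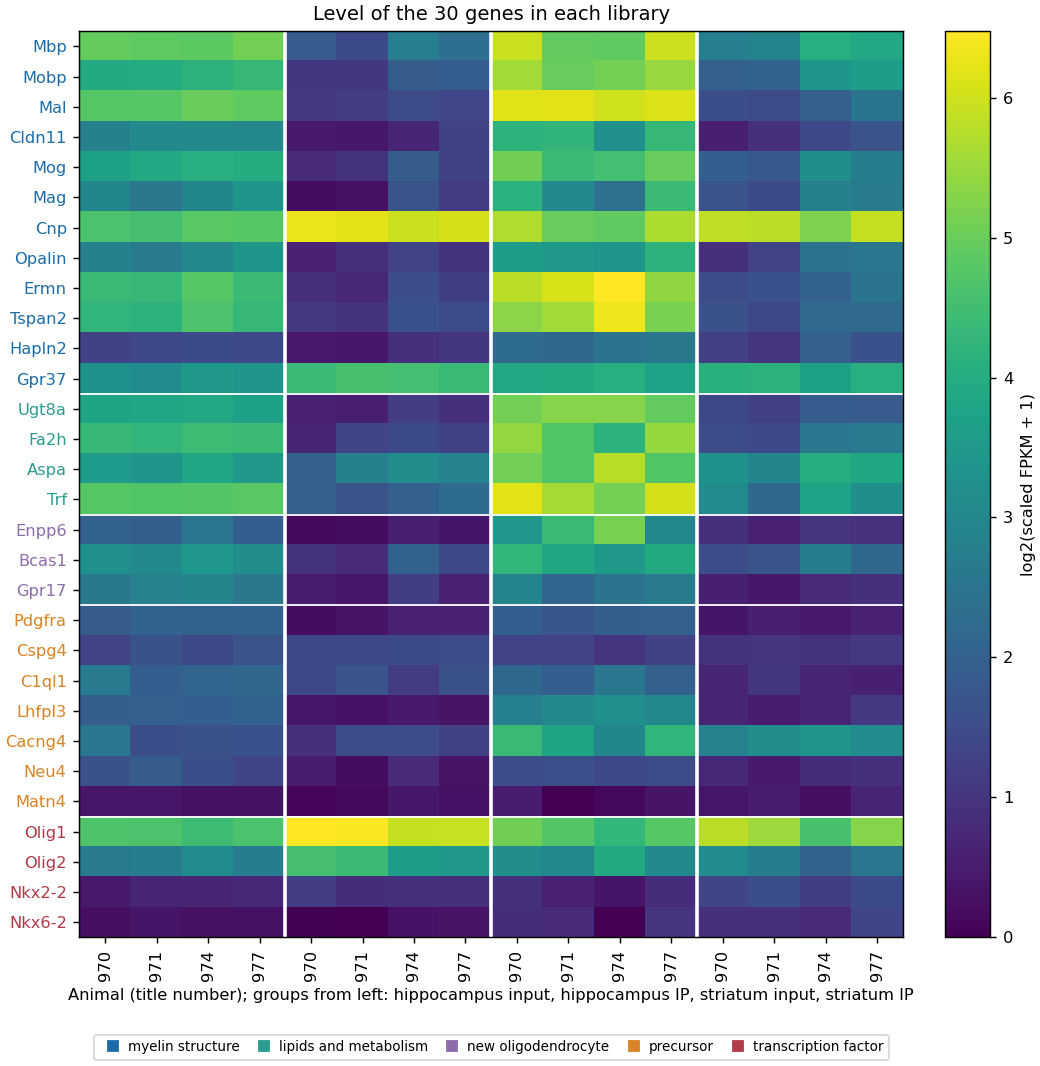
Level of each of the 30 genes (rows, label colour by role) in each of the 16 libraries (columns, 4 animals in each of 4 groups), as log2(scaled FPKM + 1) on a colour scale. Most myelin and lipid genes are dark in both IP blocks, whereas Olig1 and Cnp are brightest in hippocampal IP.

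The first comparison asked how far the tagged RNA was free of the lineage's RNA. In hippocampus, 21 of the 28 genes fell in IP, 5 rose and 2 did not pass. Over all genes tested, 35.4% fell and 30.1% rose. The median fold over the 28 was -1.87, against -0.10 for all genes. In striatum, 23 fell, 2 rose and 3 did not pass, against 31.4% and 33.5% of all genes, and the median was -1.85 against 0.01. The same 21 genes fell in both regions, and Cacng4 and Olig2 passed as lower in striatum and not in hippocampus. The difference between regions was called for Olig2 and not for Cacng4 (-0.16 ± 0.39, adjusted p = 0.825). The groups did not overlap for any of the 21 in hippocampus, and for 20 of the 23 in striatum, the exceptions being Mag, Cacng4 and Olig2. Neither overlap of groups nor calls shared by 2 comparisons were counted over all genes, here or below. Such counts only describe the values of these genes.

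**Figure D2:**
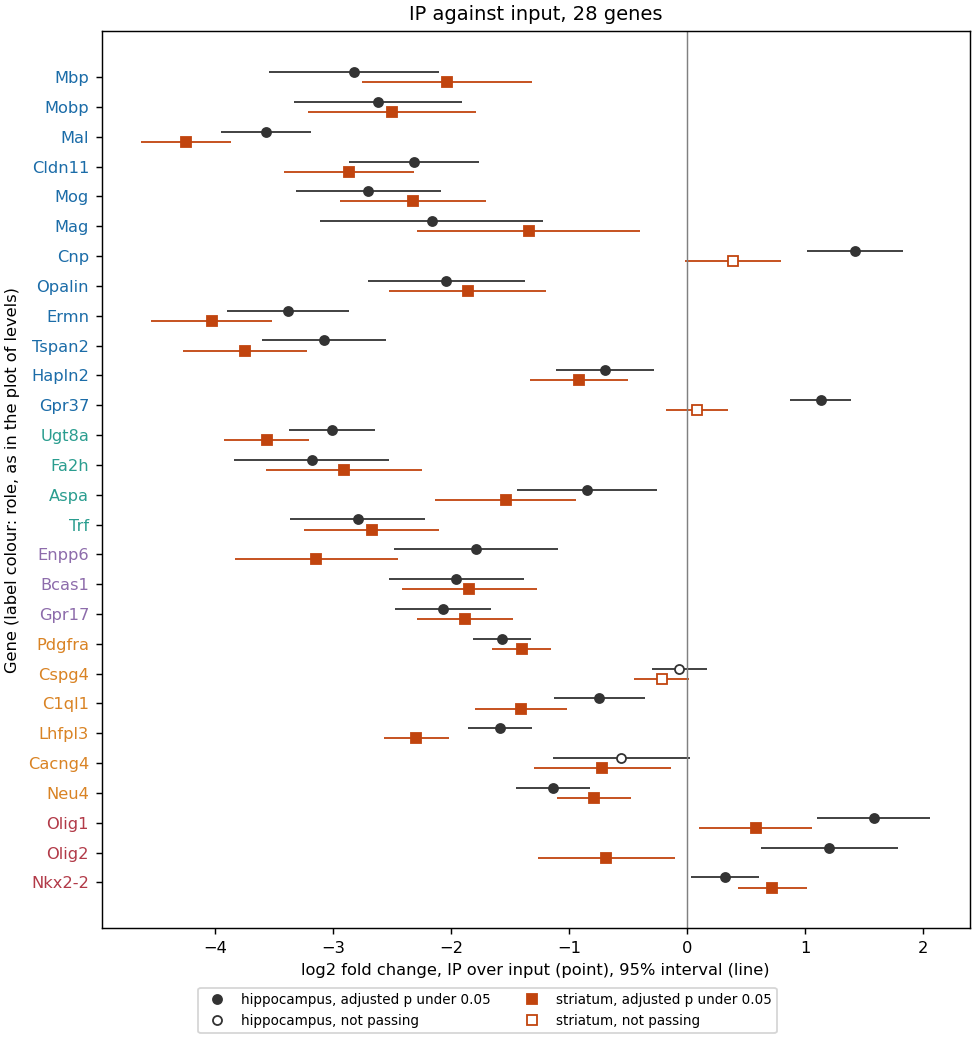
Log2 fold change of IP over input (horizontal axis) with its 95% interval for the 28 tested genes, in hippocampus (circles) and striatum (squares). Filled symbols passed the adjusted p of 0.05; most genes sit well left of 0, and Cnp, Gpr37, Olig1, Olig2 and Nkx2-2 sit to the right in hippocampus.

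Among the genes of the myelin membrane, Mal, a lipid-raft protein of compact myelin, had the lowest log2 folds. Its hippocampal level was 26.0, 26.8, 30.8 and 29.0 in the inputs of 970, 971, 974 and 977 and 1.14, 1.28, 1.83 and 1.62 in their IPs. In striatum it was 70.8, 72.3, 63.8 and 68.9 in input and 1.91, 1.79, 2.97 and 4.72 in IP. The groups were far apart in both regions, with IP at 4.38% to 5.96% of the same animal's input in hippocampus and 2.47% to 6.86% in striatum. The log2 fold was -3.57 ± 0.18 in hippocampus (limma, adjusted p = 6.31e-11) and -4.24 ± 0.18 in striatum (adjusted p = 3.61e-11). Ermn, an actin-binding protein of the oligodendrocyte's processes, was next on this scale. In hippocampus it stood at 19.99, 18.8, 26.4 and 20.3 in input and 0.830, 0.690, 1.87 and 1.32 in IP, a log2 fold of -3.38 ± 0.24 (adjusted p = 3.49e-09). In striatum it stood at 54.7, 66.5, 87.4 and 41.3 and 1.79, 2.11, 3.07 and 4.64, a log2 fold of -4.03 ± 0.24 (adjusted p = 6.38e-10). Its striatal inputs spread from 41.3 to 87.4, with 974 highest, while every IP stayed below 5. Tspan2, a tetraspanin of the myelin sheath, had the same shape. It was at 18.2, 17.2, 24.2 and 18.9 in hippocampal input and 1.09, 0.925, 2.11 and 1.78 in IP, and the log2 fold was -3.07 ± 0.25 (adjusted p = 1.30e-08). Its striatal levels were 40.0, 47.0, 79.0 and 34.7 and 2.02, 1.66, 3.63 and 3.73, and the log2 fold was -3.74 ± 0.25 (adjusted p = 1.69e-09).

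The structural proteins of compact myelin and its inner and outer faces fell less far. Mbp, the basic protein that holds the cytoplasmic faces together, went from 29.8 ± 2.44 to 3.61 ± 1.79 in hippocampus (log2 fold -2.82 ± 0.34) and from 45.3 ± 19.0 to 10.5 ± 5.10 in striatum (-2.03 ± 0.34). Mobp, a second basic protein of myelin, was at 14.4, 14.7, 16.9 and 19.0 in hippocampal input and 1.05, 1.07, 2.73 and 2.84 in IP. Its striatal values were 46.5, 30.1, 33.5 and 43.2 in input and 2.94, 3.20, 9.80 and 11.4 in IP. In both regions the IPs of 974 and 977 were above those of 970 and 971, and the log2 folds were -2.62 ± 0.33 and -2.50 ± 0.33. Mog, the surface glycoprotein of the outermost layer, had folds of -2.70 ± 0.29 and -2.32 ± 0.29, and Cldn11, the tight-junction protein of myelin, -2.31 ± 0.26 and -2.86 ± 0.26. Opalin, a membrane glycoprotein of the paranodal loops, had -2.04 ± 0.31 and -1.86 ± 0.31. Mag, which sits next to the axon, had -2.16 ± 0.44 (adjusted p = 4.57e-04) and -1.34 ± 0.44 (adjusted p = 0.0146). For Mag in striatum 3 of 4 animals were lower in IP, the exception being 974, where input was 4.29 and IP 6.08. The striatal call for Mag was lost without 970 (adjusted p = 0.128) and without 971 (0.0580). Hapln2, the link protein of the node of Ranvier, was low throughout (input 1.60 ± 0.143 and 4.21 ± 0.620) and fell by 0.70 ± 0.20 and 0.92 ± 0.20 on the log2 scale.

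The 4 genes of lipids and metabolism fell in both regions. Fa2h, the hydroxylase of myelin sphingolipids, was at 19.2, 18.2, 20.8 and 20.1 in hippocampal input and 0.587, 1.54, 1.73 and 1.41 in IP, a log2 fold of -3.18 ± 0.31 (adjusted p = 1.32e-07). Its striatal inputs split, at 42.0, 25.2, 17.2 and 43.0, with 971 and 974 low, and the IPs were at 1.81, 1.68, 4.84 and 5.49 (log2 fold -2.91 ± 0.31, adjusted p = 4.66e-07). Ugt8a, the enzyme that makes galactosylceramide, had folds of -3.01 ± 0.17 and -3.56 ± 0.17, and Trf, the iron carrier that oligodendrocytes make, -2.79 ± 0.27 and -2.67 ± 0.27. Aspa, the enzyme that frees acetate from N-acetylaspartate, fell least of the 4. It was at 10.8, 9.58, 13.0 and 10.1 in hippocampal input and 2.98, 6.04, 8.04 and 6.28 in IP (log2 fold -0.85 ± 0.28, adjusted p = 0.0143), and without 970 this call was lost (adjusted p = 0.118). The striatal levels of Aspa were 33.3, 25.1, 53.8 and 25.4 and 9.04, 6.70, 15.3 and 13.5 (log2 fold -1.54 ± 0.28, adjusted p = 1.56e-04). Its IP level was 27.7% to 63.1% of input in hippocampus and 26.7% to 53.2% in striatum, whereas Ugt8a was at 3.45% to 8.99% and 3.43% to 8.98%.

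Genes of new oligodendrocytes fell too. Enpp6, a choline phosphodiesterase, was at 3.04, 2.87, 4.85 and 2.80 in hippocampal input and 0.0995, 0.151, 0.489 and 0.291 in IP (log2 fold -1.79 ± 0.33, adjusted p = 1.44e-04). In striatal input it was at 10.02, 19.5, 35.0 and 7.06, a wide spread with 974 highest, and in IP at 0.842, 0.569, 0.978 and 0.897 (log2 fold -3.14 ± 0.33, adjusted p = 3.40e-07). Bcas1, a marker of cells that are starting to myelinate, had folds of -1.96 ± 0.27 and -1.84 ± 0.27, and Gpr17, a receptor that marks the step before myelination, -2.07 ± 0.19 and -1.88 ± 0.19. Among precursor genes, Pdgfra, the receptor for platelet-derived growth factor, went from 3.02 ± 0.197 to 0.364 ± 0.181 in hippocampus and from 2.76 ± 0.276 to 0.423 ± 0.114 in striatum, with folds of -1.57 ± 0.12 and -1.40 ± 0.12. Neu4, a sialidase, had -1.14 ± 0.15 and -0.79 ± 0.15, and C1ql1, a secreted C1q-like protein, -0.74 ± 0.18 and -1.41 ± 0.18. Lhfpl3, a tetraspan membrane protein, stood at 2.87, 2.95, 2.85 and 3.01 in hippocampal input and 0.340, 0.245, 0.374 and 0.271 in IP (log2 fold -1.59 ± 0.13, adjusted p = 1.35e-08). In striatum it stood at 5.93, 7.28, 8.52 and 7.12 and 0.598, 0.432, 0.587 and 1.13 (log2 fold -2.29 ± 0.13, adjusted p = 2.89e-10). Cspg4, the NG2 proteoglycan, which pericytes also make, did not pass in either region. It was at 1.84 ± 0.303 and 1.70 ± 0.0610 in hippocampus (95% interval of the log2 fold -0.30 to 0.17) and at 1.32 ± 0.244 and 0.993 ± 0.0883 in striatum (-0.45 to 0.02). Cacng4, a transmembrane partner of AMPA receptors, had a fold of -0.56 ± 0.27 in hippocampus (adjusted p = 0.0836) and fell by 0.72 ± 0.27 in striatum (adjusted p = 0.0302). Leaving out 970, 971 or 977 removed the striatal call for Cacng4 (adjusted p = 0.135, 0.0944 and 0.158), as did a pseudocount of 0.1 (0.0544). Its hippocampal fold ranged from -0.71 to -0.20 with 1 animal left out, and passed without 974 (-0.70, adjusted p = 0.0262) and with a pseudocount of 0.1 (-0.81, 0.0453).

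The residual level in IP was itself measured. For the 16 myelin and lipid genes, the median IP level as a share of the same animal's input was 6.68%, 6.94%, 16.8% and 12.4% in the hippocampus of 970, 971, 974 and 977. In striatum it was 8.28%, 11.5%, 33.1% and 20.6%. The 8 neuronal markers, measured in the same way, were at 5.34%, 5.36%, 11.2% and 7.55% in hippocampus and 8.67%, 10.8%, 20.4% and 13.6% in striatum. Both sets were thus lowest in 970 and 971 and highest in 974, in each region. The share also depends on the input, and the striatal input of 974 was the shallowest library. Its level of Fa2h was 17.2 against 43.0 in 977, with IPs at 4.84 and 5.49. For Ermn the inputs went the other way, 87.4 against 41.3, with IPs at 3.07 and 4.64. A high share is thus not always a high IP level. For single genes, the IPs of 974 and 977 both exceeded those of 970 and 971 in this share for 10 of the 16 genes in hippocampus and 13 of 16 in striatum. Microglial markers were at 6.40% to 12.7% in hippocampus and 7.95% to 14.2% in striatum. Endothelial markers (5 genes) were at 11.8% to 19.3% and 8.48% to 27.8%, and mural markers (3 genes) at 7.05% to 20.7% and 6.05% to 10.04%. Markers of ependyma and choroid plexus (6 genes) were higher, at 19.6% to 77.7% and 44.4% to 108%. Of the 8 listed, 4 (Ttr, Folr1, Clic6, Tmem212) were at 0 in some library. Their summed level was 7.93 to 20.6 in hippocampal input and 3.82 to 73.0 in hippocampal IP, so this share is less certain. The share thus differed between markers of other cells, and the neuronal share does not stand for all of them. The 6 precursor genes had medians of 19.7% to 44.2% and 24.8% to 30.6%, and were not alike. Pdgfra was at 11.9% ± 5.47 and 15.5% ± 4.74 and Lhfpl3 at 10.6% ± 2.30 and 9.68% ± 4.46 in hippocampus and striatum, whereas Cspg4 was at 94.2% ± 15.2 and 76.8% ± 14.0 (mean ± SD, n = 4). The part of such residual RNA in the calls below was not tested. A fit with the neuronal share subtracted is given below as an alternative only.

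**Figure D3:**
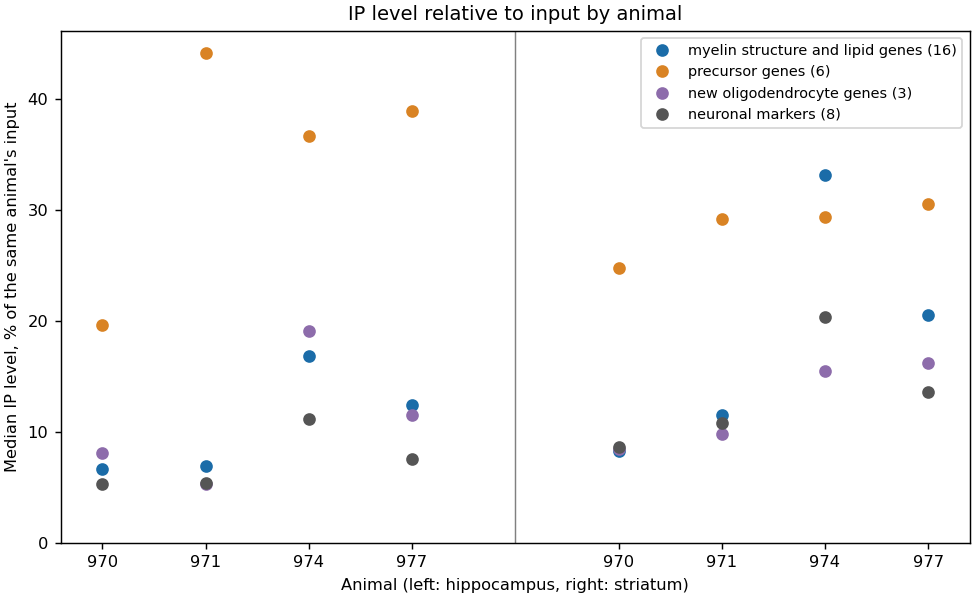
Median IP level as a percent of the same animal's input (vertical axis) for each animal, hippocampus on the left and striatum on the right, with 1 point for each gene set. The myelin and lipid genes and the neuronal markers are both highest in 974, at 33.1% and 20.4% in striatum, where the input of 974 was the shallowest library.

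Against this fall, 5 genes rose in hippocampal IP: Olig1, Cnp, Olig2, Gpr37 and Nkx2-2. Olig1, a basic helix-loop-helix factor of the lineage, was at 25.0, 24.5, 20.5 and 23.8 in the inputs and 87.9, 85.5, 59.4 and 60.1 in the IPs. All IPs lay above all inputs, those of 970 and 971 furthest, and the log2 fold was 1.58 ± 0.23 (adjusted p = 1.06e-05). In striatum it was at 32.3, 26.0, 18.5 and 26.7 in input and 55.0, 44.9, 23.2 and 38.1 in IP. Each striatal IP was above its own input but the groups overlapped, since the IP of 974 lay below 3 of the inputs, and the log2 fold was 0.58 ± 0.23 (adjusted p = 0.0324). Without scaling, which shifted the median of all genes to -0.25, the fold was 0.24 (adjusted p = 0.323), or 0.49 above that median. The call was lost without the striatal input of 974 (0.44, 0.103), and without 970, 971 or 977 (adjusted p = 0.0788, 0.151 and 0.0858).

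Olig2, the factor that founds the lineage and is also known from some astrocytes, was at 5.31, 5.66, 7.81 and 5.63 in hippocampal input and 22.7, 20.3, 11.3 and 10.1 in IP. The groups were apart, with a log2 fold of 1.20 ± 0.27 (adjusted p = 0.00107). In striatum the order was the reverse. Input was at 8.01, 7.19, 14.6 and 7.36 and IP at 7.80, 5.69, 3.21 and 4.84, each IP was below its own input, and the log2 fold was -0.68 ± 0.27 (adjusted p = 0.0383). This striatal call rested on 974, whose input was highest and whose IP was lowest: without that animal the log2 fold was -0.28 (adjusted p = 0.314), and without its striatal input alone -0.46 (0.133). It was also lost without 971 (adjusted p = 0.0647) and without 977 (0.0646).

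Cnp, the phosphodiesterase of non-compact myelin, rose in hippocampal IP with Gpr37, whereas the other 10 genes of its class fell. It was at 23.9, 22.8, 27.3 and 26.6 in input and 76.6, 72.8, 60.9 and 65.8 in IP, and the log2 fold was 1.42 ± 0.19 (adjusted p = 5.79e-06). In striatum it was at 50.9, 30.2, 28.7 and 49.9 and 56.7, 54.6, 36.4 and 59.2. There the inputs of 971 and 974 were low, all 4 IPs were above their own inputs, and the log2 fold of 0.39 ± 0.19 did not pass (adjusted p = 0.0845, 95% interval -0.02 to 0.80). Gpr37, an orphan receptor of myelinating cells, was at 9.04, 7.86, 10.4 and 9.43 in hippocampal input and 19.6, 23.2, 22.1 and 20.1 in IP (log2 fold 1.13 ± 0.12, adjusted p = 4.91e-07). In striatum its input was at 14.0, 14.2, 15.9 and 12.6 and its IP at 16.4, 16.8, 11.7 and 15.8, groups that overlapped, with a log2 fold of 0.09 ± 0.12 (adjusted p = 0.556, 95% interval -0.17 to 0.35).

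Nkx2-2, a homeobox factor of differentiating precursors, was low. It was at 0.348, 0.586, 0.619 and 0.679 in hippocampal input and 1.25, 0.7995, 0.879 and 0.856 in IP, which is 12 to 29 and 40 to 59 estimated fragments. The log2 fold of 0.32 ± 0.14 was at the edge of the threshold (adjusted p = 0.0493) and did not pass with the animal as a block (0.0546). It did not pass without 971, 974 or 977 either (0.0920, 0.0510 and 0.0893). Without 970 the gene did not meet the filter and was not tested, so its call held with no animal left out. Without scaling its fold was 0.08, which is 0.597 above the median of all genes at that setting, against 0.43 above it with scaling. Striatal Nkx2-2 was at 0.845, 0.515, 0.283 and 0.753 in input and 1.53, 1.94, 1.28 and 1.73 in IP, with all IPs above all inputs, and the log2 fold was 0.72 ± 0.14 (adjusted p = 2.20e-04). However, Nkx2-2 reached 1 FPKM before scaling only in these striatal IPs and in the striatal input of 970. Without these IPs it would not have met the filter of 1 FPKM in 4 libraries. Its striatal rise, and its place among the 2 genes that rose there, was thus favoured by the filter itself.

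**Figure D4:**
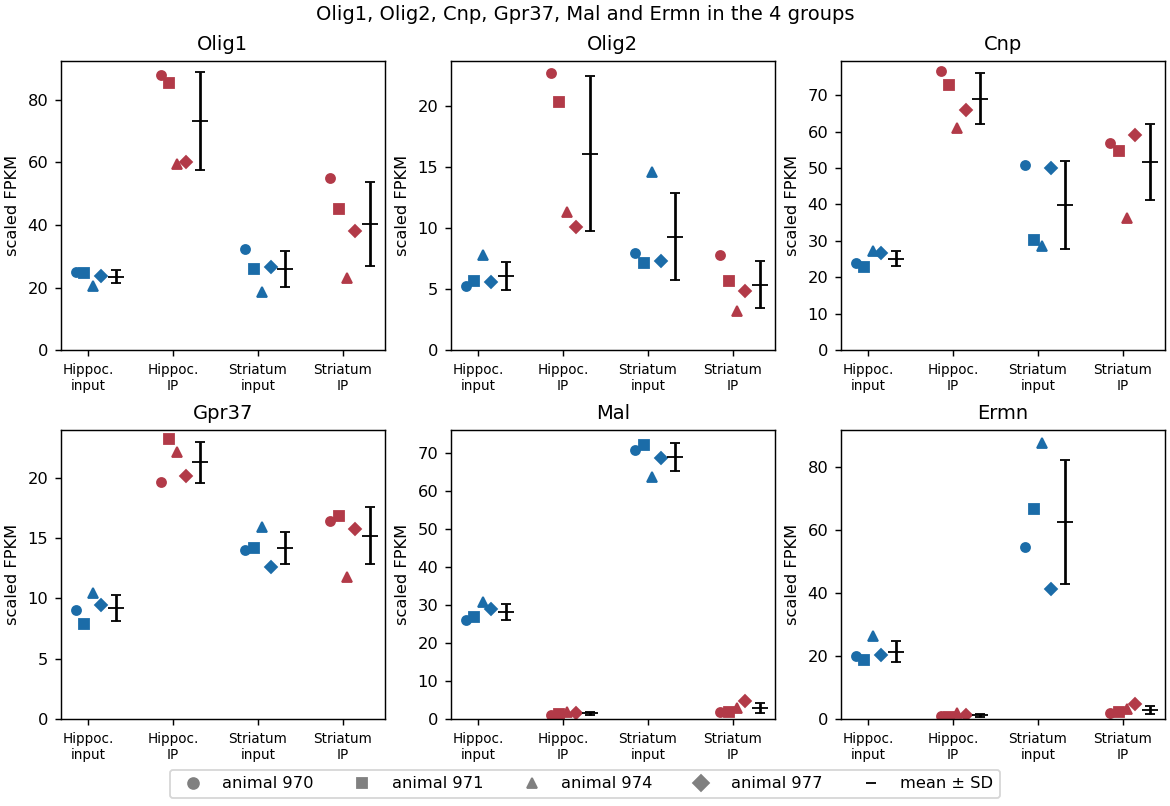
Scaled FPKM (vertical axis, from 0) of 6 genes in the 4 groups; symbols are animals and the bar is the mean ± SD, n = 4. Olig1, Olig2, Cnp and Gpr37 rise in hippocampal IP, with Olig2 below input in striatal IP, while Mal and Ermn are near 0 in both IPs.

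Whether the enrichment itself differed between regions was tested as a difference of folds, striatum minus hippocampus. Of the 28 genes, 5 were lower and 0 higher, against 5.34% and 8.46% of all genes, and 23 did not pass. In the higher direction the count in limma was also 0 at an unadjusted p under 0.05. The difference was -1.89 ± 0.39 for Olig2 (adjusted p = 0.00357), -1.04 ± 0.17 for Gpr37 (6.53e-04), -1.03 ± 0.27 for Cnp (0.0176), -1.0 ± 0.32 for Olig1 (0.0470) and -0.71 ± 0.18 for Lhfpl3 (0.0152). The first 4 of these rose in hippocampal IP, whereas Lhfpl3 fell in both regions, further in striatum on the log2(scaled FPKM + 1) scale. As a share of input, the IP level of Lhfpl3 was alike, at 10.6% ± 2.30 in hippocampus and 9.68% ± 4.46 in striatum. Leaving out 1 animal at a time kept the Gpr37 call, with adjusted p between 0.00221 and 0.0204. For Olig2 it ranged from 0.00560 to 0.0552, the last without 971. For Cnp the range was 0.0115 to 0.137 (lost without 970, 971 or 977), for Lhfpl3 0.0262 to 0.141 (lost without 970, 971 or 974) and for Olig1 0.0239 to 0.224 (lost without 970, 971 or 977). Without scaling, Cnp and Olig1 did not pass (adjusted p = 0.0800 and 0.0794), while their differences relative to the median of all genes were -1.07 and -1.04, against -1.12 and -1.09 with scaling. With a pseudocount of 0.1 the difference for Lhfpl3 was -0.38 (0.469). The count of 5 fell to 2 without 970 and 1 without 971, and to 3 with a pseudocount of 0.1. Enpp6 had a difference of -1.35 ± 0.46, which did not pass (adjusted p = 0.0630) but did with the animal as a block (0.0322). The 10 astrocyte markers had a median difference of -0.28.

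The next comparison set striatum against hippocampus. In input, 15 of the 28 genes were higher in striatum and 0 lower, against 14.5% and 21.8% of all genes, and 13 did not pass. In the lower direction the count at an unadjusted p under 0.05 in limma was 1, Cspg4. The median fold was 0.66, against -0.07 for all genes. The groups did not overlap for any of the 15. Of the markers of other cells, 4 of 8 neuronal ones were lower in striatal input and 1 higher (median -0.68, summed level 2882 to 2984 in hippocampus and 1561 to 1942 in striatum). Of 8 microglial markers 3 were higher and 5 did not pass (68.3 to 71.7 and 83.2 to 100.2; C1qa was at 0 in some library), and of 5 endothelial markers tested 2 were higher and 3 did not pass (17.5 to 20.3 and 24.8 to 29.8; Cldn5 and Ly6c1 were at 0 in some library). Their part in the folds was not tested. In whole tissue, more cells of a type and more RNA per cell cannot be told apart. Of the 12 myelin protein genes 9 were higher and of the 4 lipid and metabolism genes 3, whereas of the 6 precursor genes tested 2 were higher and of the 3 transcription factors 0.

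Cacng4 had the largest fold on the log2(scaled FPKM + 1) scale, while the ratio of mean levels was 5.26 for Cacng4 and 5.28 for Enpp6. Cacng4 was at 4.82, 1.95, 2.05 and 2.08 in hippocampal input, where 970 stood above the others, and at 19.7, 12.8, 6.88 and 18.0 in striatal input (log2 fold 2.01 ± 0.27, adjusted p = 2.59e-05). Enpp6 followed, with a log2 fold of 1.89 ± 0.33 (adjusted p = 2.79e-04), and then Aspa, with 1.52 ± 0.28 (5.24e-04), on the inputs given above. Their 4 striatal inputs were all above their 4 hippocampal inputs. Among myelin proteins the folds were 1.46 for Ermn, 1.26 for Mal, 1.25 for Tspan2, 1.17 for Mobp, 0.996 for Hapln2, 0.98 for Cldn11, 0.82 for Mog, 0.60 for Cnp and 0.57 for Gpr37. Ugt8a and Trf, at 1.34 and 0.98, and Lhfpl3, at 1.06, completed the 15. With an animal left out, calls were lost for Mobp (without 970, adjusted p = 0.0517), Cldn11 (without 971, 0.0686) and Trf (without 970 and 977, 0.0857 and 0.0595). Those of Mog and Cnp were lost without 970, 971 or 977, with adjusted p of 0.162, 0.0688 and 0.123 for Mog and 0.154, 0.0675 and 0.103 for Cnp. Mbp, Mag, Opalin, Fa2h and Bcas1 had folds of 0.50, 0.52, 0.69, 0.58 and 0.64 and did not pass. For Gpr17, Pdgfra, C1ql1 and Neu4 the 95% intervals were -0.62 to 0.19, -0.35 to 0.15, -0.44 to 0.34 and -0.40 to 0.22. Those of Olig1, Olig2 and Nkx2-2 were -0.36 to 0.59, -0.09 to 1.08 and -0.26 to 0.32.

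The striatal inputs were not alike. Those of 971 and 974, the shallowest, differed from those of 970 and 977 in step with base composition. Across 12865 genes the log2 difference had a Spearman correlation of -0.61 with transcript GC content, against -0.22 for the hippocampal inputs of the same animals, and across the 28 genes it was -0.47 against -0.35 (a description over genes of the same libraries). Enpp6 (42.3% GC), Tspan2 (42.2%) and Ermn (38.0%) were higher in 971 and 974, by 1.53, 0.69 and 0.67 on the log2 scale. Mag (57.6%), Mbp (51.0%) and Fa2h (55.2%) had differences of -1.52, -1.07 and -1.0. The genes highest in GC were mixed, with C1ql1 (65.8%) at 0.15, Olig1 (61.1%) at -0.40, Cspg4 (59.2%) at -0.16 and Olig2 (58.5%) at 0.38. The part of base composition in the regional folds was not tested, and without both inputs 16 genes were higher in striatal input. Fa2h then passed, with a log2 fold of 1.08 (adjusted p = 0.0221).

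**Figure D5:**
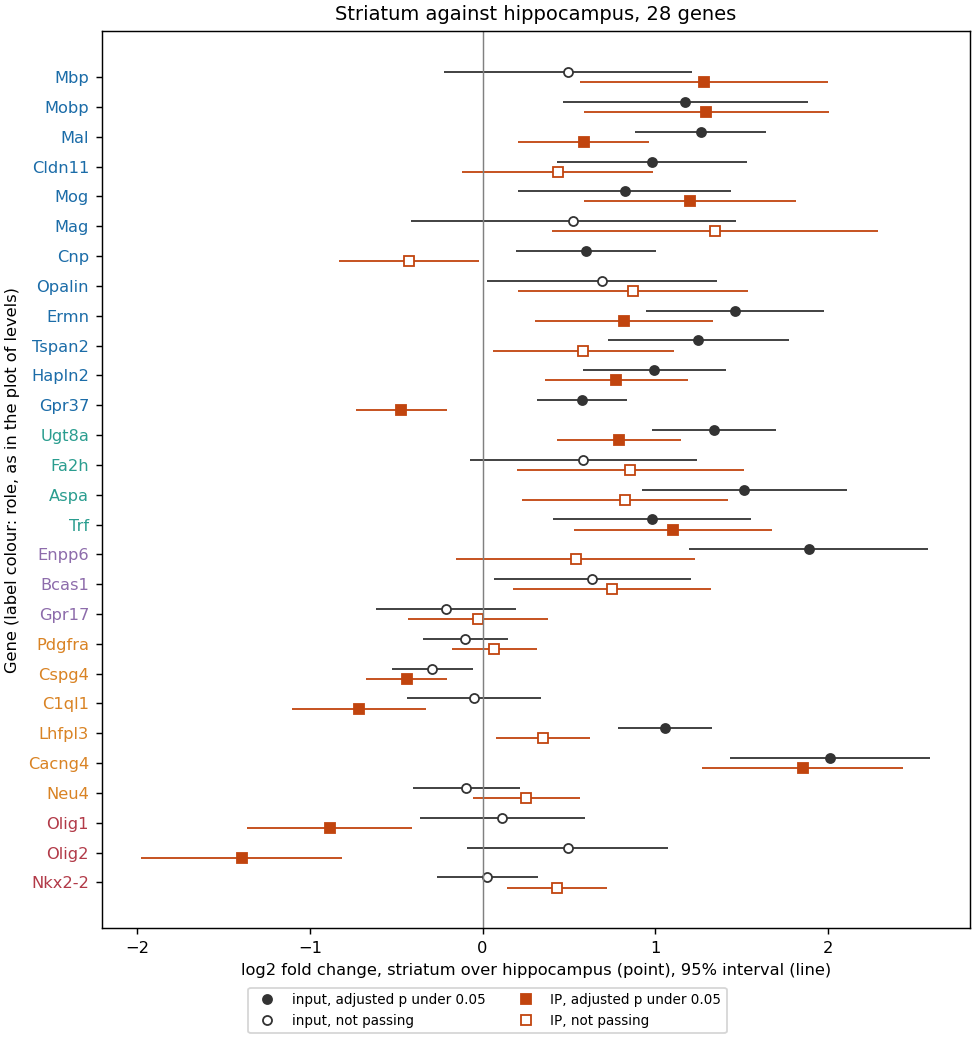
Log2 fold change of striatum over hippocampus (horizontal axis) with its 95% interval for the 28 tested genes, in input (circles) and IP (squares); filled symbols passed the adjusted p of 0.05. Myelin genes sit to the right of 0 in input, and Olig1, Olig2, Gpr37, Cspg4 and C1ql1 are filled to the left of 0 in IP.

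Between the IPs, 9 genes were higher in striatum and 5 lower, against 7.18% and 5.37% of all genes, with 14 that did not pass. Of the 9, 8 were also higher in striatal input, and the other was Mbp. How many of all genes were higher in both was not counted. Cacng4 again had the largest fold. Its hippocampal IPs were at 0.869, 1.77, 1.77 and 1.39 and its striatal IPs at 6.29, 8.10, 9.15 and 7.69, apart in every animal (log2 fold 1.85 ± 0.27, adjusted p = 1.95e-04). Mobp, with 1.30 ± 0.33 (adjusted p = 0.0160), Mbp, with 1.28 ± 0.34 (0.0184), Mog, with 1.20 ± 0.29 (0.0109), and Trf, with 1.10 ± 0.27 (0.0119), came next. Ermn, Ugt8a, Hapln2 and Mal, at 0.82, 0.79, 0.77 and 0.59, completed the 9. For 6 of the 9 the groups overlapped. The residual shares of the neuronal markers given above were also higher in striatal than in hippocampal IP, in every animal. With that share of input subtracted from each IP and values below 0 set to 0, Cacng4 remained called. For Mal, Ermn and Ugt8a all 8 IPs were then 0, so their fold was 0 by construction. The folds of Mbp, Hapln2, Mog, Mobp and Trf became 1.02, 0.57, 0.59, 0.46 and 0.06 and did not pass (limma, adjusted p = 0.237, 0.0754, 0.353, 0.617 and 0.958). The 5 lower genes remained lower, and of their IPs only 1, for C1ql1, was set to 0. Because the share was larger in striatum, the step could hardly undo a lower call, and it is no test of these 5. Without 977, 1 gene was higher (Cacng4) and 1 lower (Olig2), and without 970, 5 were higher and 2 lower.

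The 5 lower genes were Olig2, Olig1, C1ql1, Gpr37 and Cspg4, and for each the 4 striatal IPs lay below the 4 hippocampal IPs. Astrocyte markers moved the same way, with 5 of 10 lower in striatal IP and 5 not passing, a median fold of -0.49, and a summed level of 10397 to 14296 in hippocampal and 6604 to 12095 in striatal IP. None of the 10 was at 0, and their part in these folds was not tested. Olig2, on the IPs given above, was 2.99 times lower in its mean (log2 fold -1.40 ± 0.27, adjusted p = 0.00240) and kept its call when any single animal was left out (0.00258 to 0.0423). Olig1 had a log2 fold of -0.89 ± 0.23 (adjusted p = 0.0147), C1ql1 -0.72 ± 0.18 (0.0155), Gpr37 -0.47 ± 0.12 (0.0176) and Cspg4 -0.44 ± 0.11 (0.0138). The Gpr37 and Cspg4 calls were lost whichever animal was left out (adjusted p = 0.0650 to 0.0814 and 0.0512 to 0.0945). Olig1 did not pass without 971 or 977 (0.0998 and 0.0744), nor C1ql1 without 970 or 977 (0.0617 and 0.173). Cnp, at -0.43, did not pass (adjusted p = 0.176).

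Other genes of the pathway were read from lists of the same lineage. Of 31 further genes of mature oligodendrocytes that were tested, 15 fell and 8 rose in hippocampal IP, and 19 fell and 7 rose in striatal IP. Over all genes, 35.4% fell and 30.1% rose in hippocampus and 31.4% and 33.5% in striatum. Tppp, a tubulin-binding protein of the lineage, and Tmem88b had hippocampal folds of -3.69 ± 0.23 and -3.03 ± 0.19. Among those that rose was Car2, a carbonic anhydrase, from 71.9 ± 3.67 to 374 ± 45.5 in hippocampus (2.36 ± 0.13) and from 86.4 ± 4.17 to 197 ± 32.8 in striatum (1.17 ± 0.13). In input, 14 of the 31 were higher in striatum and 2 lower, against 14.5% and 21.8% of all genes. Of 14 further genes of precursors and new cells tested, 7 rose and 6 fell in hippocampal IP. In striatal IP 6 rose and 5 fell (same shares over all genes for IP as above). Their median folds were 0.50 and 0.01, against -0.94 and -1.09 for the 6 precursor genes tested before.

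Of 12 further regulators tested, 7 rose and 5 fell in hippocampal IP, and 7 rose and 4 fell in striatal IP, beside 30.1% that rose and 35.4% that fell among all genes in hippocampus and 33.5% and 31.4% in striatum. Sox10, which directs the lineage with Olig2, fell in both, from 9.35 ± 1.37 to 1.08 ± 0.430 in hippocampus (-2.32 ± 0.17) and from 14.9 ± 2.2 to 2.55 ± 0.759 in striatum (-2.18 ± 0.17). Id4, an inhibitor of helix-loop-helix factors that astrocytes also make, rose by 3.43 ± 0.22 on the log2 scale in hippocampus and 1.14 ± 0.22 in striatum, and its difference between regions was -2.29 ± 0.30 (adjusted p = 8.99e-05). Tcf7l2, a Wnt effector, rose by 1.95 ± 0.13 and 1.45 ± 0.13. Of 9 secreted or surface ligands that act on the lineage, 5 rose in each region (same shares over all genes), among them the Wnt ligands Wnt7a (2.05 ± 0.16 and 1.89 ± 0.16) and Wnt7b (1.37 ± 0.17 and 2.39 ± 0.17). Pdgfa, the ligand of Pdgfra, fell, by 1.38 ± 0.16 and 1.97 ± 0.16. Jag1, a Notch ligand, rose by 1.67 ± 0.13 in hippocampus and 0.39 ± 0.13 in striatum, a difference of -1.28 ± 0.18 (adjusted p = 1.57e-04).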

How the data were processed

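RNA was measured in 16 libraries from 4 mice. The authors deposited 1 table of FPKM per library. The labels do not name the unit. The deposited values were taken as FPKM because low values lie on steps that scale with gene length and library, and whether reads or fragments were counted is not given in the sources used here. Per the submitters' processing notes, bcl2fastq 2.17 served for base calls, STAR for alignment (mm10) and HTSeq for counts. Gene models and strand settings are not given in the sources used here. Of 24060 labels, 27 had become dates and were dropped. Coordinates are from GENCODE vM21. Since absolute depth was estimated from FPKM steps and gene lengths, its ratio between libraries (5.43-fold at most) is firmer than its size.

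FPKM was divided by trimmed-mean factors (0.746 to 1.303; 30% of log ratios and 5% of levels trimmed), a pseudocount of 1 was added and log2 taken. Genes with 1 FPKM in 4 libraries (13449) entered a limma 3.58.1 fit in R 4.3.3 with the 4 groups as terms, trended and robust variance, and 12 residual degrees of freedom. Benjamini-Hochberg adjustment ran within each of 5 comparisons. The code was tested on simulated data. Values by animal are given for the 3 largest called folds per region and direction in IP against input, the 3 largest between regions in input and in IP, every gene called in the difference and every gene higher in IP. Members and lists were chosen with earlier results of these data known.

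Libraries of 1 animal were paired by the animal number in the titles. Deviations from group means correlated within animals at 0.308 to 0.532 between the IPs, 0.054 to 0.319 between the inputs, and -0.008 to 0.085 between striatal input and IP, so the animal entered as a block in an alternative. Other alternatives were scaling, pseudocount, filter, variance trend, each animal left out and striatal inputs left out. Subtraction of the neuronal share (median IP to input ratio of 8 neuronal markers, per library, times the same animal's input, with values below 0 set to 0) and leaving out the striatal input of 974 alone were chosen after seeing the data. Sequences from chromosome 18 are not reported here.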

Additional observations from a re-analysis of the deposited data

Results flagged for a closer look

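In 7 of 120 groups of 4 values (each of the 30 genes in each group), 1 animal stood far from the other 3, where chance alone gives about 1 in 20. In striatal input, 974 was lowest for Cldn11, at 8.63 against 17.2 to 18.7 scaled FPKM, lowest for Cspg4, at 0.958 against 1.43 to 1.46, and highest for Olig2, at 14.6 against 7.19 to 8.01. In hippocampal input, 974 was highest for Enpp6, at 4.85 against 2.80 to 3.04, and for Olig2, at 7.81 against 5.31 to 5.66. The hippocampal input of 970 was highest for Cacng4, at 4.82 against 1.95 to 2.08. The striatal IP of 977 was highest for Nkx6-2, at 1.54 against 0.742 to 0.868, a gene that did not pass the filter. Inputs of 974 from both regions made up 5 of the 7, and only its striatal input was the shallowest library. The 7 of 120 are near the rate of 1 in 20.

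The enrichment in IP differed between striatum and hippocampus, by a test of the difference, for 5 genes. On the log2 scale the difference was -1.89 for Olig2, -1.04 for Gpr37, -1.03 for Cnp, -1.0 for Olig1 and -0.71 for Lhfpl3. With a pseudocount of 0.1 the difference for Lhfpl3 was -0.38 and did not pass (limma, adjusted p = 0.469).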

How the results depend on the processing

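Over 14 alternative fits, none of the 140 folds that was called changed sign. Without scaling, the median fold of all genes moved from -0.10 to -0.51 in hippocampal IP, from 0.01 to -0.25 in striatal IP, from -0.02 to 0.11 between IPs and from 0.09 to 0.25 for the difference, so folds there are read against those medians. The 2 genes higher in striatal IP became 1 without scaling, with no filter and with the filter at 8 libraries. The count was also 1 without the striatal inputs of 971 and 974, without that of 974 alone and with the neuronal share subtracted. With an animal left out it was 0 to 2. Nkx2-2 did not meet the filter at 8 libraries or without 970, and was not tested there. The count of 0 genes lower in striatal input became 1 with no filter, with no variance trend and with the replicate block. Between IPs, the 5 lower genes became 3 without scaling and 1 to 3 with an animal left out. The 9 higher became 14 without the striatal inputs of 971 and 974, 1 with the share subtracted and 1 to 7 with an animal left out. The 5 genes lower in the difference became 3 with a pseudocount of 0.1, 13 with the share subtracted and 1 to 4 with an animal left out. The subtraction set all 8 IPs of 3 genes to 0 and some IPs of 13 more. For Mal, Ermn and Ugt8a the fold between IPs is then 0, and the difference is the input fold with its sign turned, by construction, so the 1 and the 13 are partly fixed by that step. The other causes were not tested.

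With the replicate block, 8 of the 140 calls changed. Nkx2-2 in hippocampal IP was lost (0.32, adjusted p = 0.0546 in limma), and 7 were gained: Opalin (0.69) and Cspg4 (-0.29) between inputs, Mag (1.35), Opalin (0.87), Tspan2 (0.58) and Aspa (0.83) between IPs, and Enpp6 in the difference (-1.35). It changed no other call of these genes. Low depth limits the striatal inputs of 971 and 974 most, and Nkx2-2, Nkx6-2 and Matn4 throughout.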
